A study of Mus musculus with 6 samples.

Results

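Trimethylation of lysine 4 on histone H3 (H3K4me3) was mapped in wild-type B16 cells, a mouse melanoma line, and the regions described here are the H3K4me3 peaks that lay outside genes and carried no peak of the acetyltransferase p300. A peak was included when it lay more than 1 kb outside every RefSeq gene span of any type on chromosomes 1 to 19, X and Y, and shared no base with a p300 peak. Of 27019 H3K4me3 peaks on these chromosomes, 3463 met the rule, which is 12.8% (95% interval 12.4 to 13.2%). They covered 2.15 Mb, or 9.27% of the length under all H3K4me3 peaks. The peaks were chosen by the measured positions in both lists, so their number, their lack of p300 and their distance of over 1 kb from genes are a description and not a finding.

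The study made 6 CUT&Tag libraries with 3 antibodies. CUT&Tag uses an antibody to bring a transposase to chromatin in permeabilised cells, where it cuts and tags the DNA beside the target. The H3K4me3 library (antibody ab8580) and the p300 library (Active Motif) came from wild-type cells, 1 library each, and the 4 H3K9me3 libraries, from wild-type, Tdg knockout, Trp53 knockout and double knockout cells, were not analysed here. A single library each for H3K4me3 and p300 leaves replicate variation unmeasured, so no test was made, and every difference below compares peaks within 1 H3K4me3 library. Intervals are exact binomial ones and cover counting error only. A region without a p300 peak had none detectable at the depth of that library, which is not the same as an absence of p300.

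H3K4me3 is deposited by SET1 and MLL complexes at the first nucleosomes downstream of transcription start sites, most stably where the DNA is rich in CpG. Outside annotated genes it can mark the start of an unannotated transcript, a distal promoter of a gene or of a microRNA, or a strong enhancer. p300, encoded by Ep300, acetylates histones and is a usual marker of active enhancers and promoters. As a check of the cell type, 24 of 25 pigment cell genes had an H3K4me3 peak in the gene or within 1 kb, where 12889 of all 21883 protein-coding genes did. Among markers of other cell types it was 1 of 11 hepatocyte, 2 of 13 myeloid, 2 of 12 epithelial, 3 of 11 muscle, 4 of 15 lymphocyte, 7 of 13 neural and 8 of 14 stromal genes. Lists of general function were marked as fully as the pigment list, with 28 of 29 ribosomal protein and 23 of 23 excision repair genes.

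A few of the regions lay upstream of intergenic microRNA genes. A microRNA hairpin is cut from a longer primary transcript whose start often lies kilobases upstream and is missing from gene tables. Of 1005 mouse hairpins in the RefSeq table of GRCm38.p6, 230 lay outside other genes. The first H3K4me3 peak met within 20 kb upstream was an intergenic peak without p300 for 12 of these 230 hairpins, which is 5.22%. Downstream it was so for 12 hairpins too. Any H3K4me3 peak lay within 20 kb upstream of 81 hairpins and downstream of 58. The 12 upstream cases belonged to 7 peaks, since hairpins of a cluster share 1 peak.

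The mature products of those 12 hairpins are 23 sequences with 21 different seeds, the bases 2 to 8 that pair with target messages. Only 2 seeds occurred more than once, each within 1 cluster. The main products of the clusters and of Mir146 are shown with the seed in capitals, from RefSeq.
mmu-miR-29a-3p: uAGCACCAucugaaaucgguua
mmu-miR-29b-3p: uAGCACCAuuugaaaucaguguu
mmu-miR-195a-5p: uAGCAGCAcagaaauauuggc
mmu-miR-497a-5p: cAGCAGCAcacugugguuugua
mmu-miR-23a-3p: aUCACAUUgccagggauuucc
mmu-miR-27a-3p: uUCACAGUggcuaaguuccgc
mmu-miR-24-3p: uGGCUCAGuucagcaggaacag
mmu-let-7c-5p: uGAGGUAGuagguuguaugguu
mmu-miR-99a-5p: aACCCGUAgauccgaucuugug
mmu-miR-146a-5p: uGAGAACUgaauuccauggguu
miR-29a-3p and miR-29b-3p share the seed AGCACCA and are known for repressing collagen and DNA methyltransferase messages. miR-195a-5p and miR-497a-5p share AGCAGCA, the seed of the miR-15/16 family, which represses cell cycle genes. The products of the Mir23a cluster and of the Mir99a cluster had seeds that differed within each cluster.

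The Mir146 region was the strongest of the 7. Mir146 encodes miR-146a, a brake on NF-kB signalling, and its hairpin lies on the minus strand of chromosome 11. The peak at chr11:43384928-43386184 was 1257 bp wide and lay 10466 bp upstream of the hairpin, with a fold of 11.1 over background, a −log10 q of 103 and 155 reads at its summit. Its nearest p300 peak was 280898 bp away. The fold and the −log10 q are the authors' values, and the reads at a summit were solved from them.

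The clustered hairpins had nearer peaks, which were weaker than that of Mir146 in fold, −log10 q and reads. Mir497 and Mir195a lay 1471 and 1796 bp downstream of chr11:70232525-70233245, a peak of 721 bp with a fold of 4.45 and 110 reads. Mir29b-1 and Mir29a lay 1818 and 2164 bp from chr6:31064912-31065840, with a fold of 4.70 and 47 reads, and the nearest protein-coding gene there, Klf14, was 105921 bp away. Mir99a and Mirlet7c-1 lay 3934 and 4655 bp from chr16:77594637-77595001, a narrow peak of 365 bp with a fold of 4.82 and 47 reads. All 3 of these peaks had folds under the median of the regions, which was 6.26, but summit reads above their median of 43. The −log10 q of the Mir497 peak, 34.7, was above the upper quartile of the regions, 31.8.

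At the Mir23a cluster p300 was close by. Mir23a, Mir27a and Mir24-2 lay 4236, 4390 and 4533 bp from chr8:84203281-84204281. This peak of 1001 bp had 140 reads at its summit but a fold of only 2.91, and a p300 peak lay 549 bp from it. Mir181d lay 5542 bp from a peak of fold 2.78, and Mir8096 lay 8535 bp from one of fold 8.51. Several of these peaks also had a protein-coding gene nearby. The nearest was 1958 bp from the Mir497 peak (0610010K14Rik) and 6660 bp from the Mir23a peak (Zswim4). It was 7777 bp from the Mir181d peak (Nanos3) and 6316 bp from the Mir8096 peak (A630001G21Rik). From the Mir146 and Mir99a peaks it was 34059 and 477853 bp away.

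**Figure D1:**
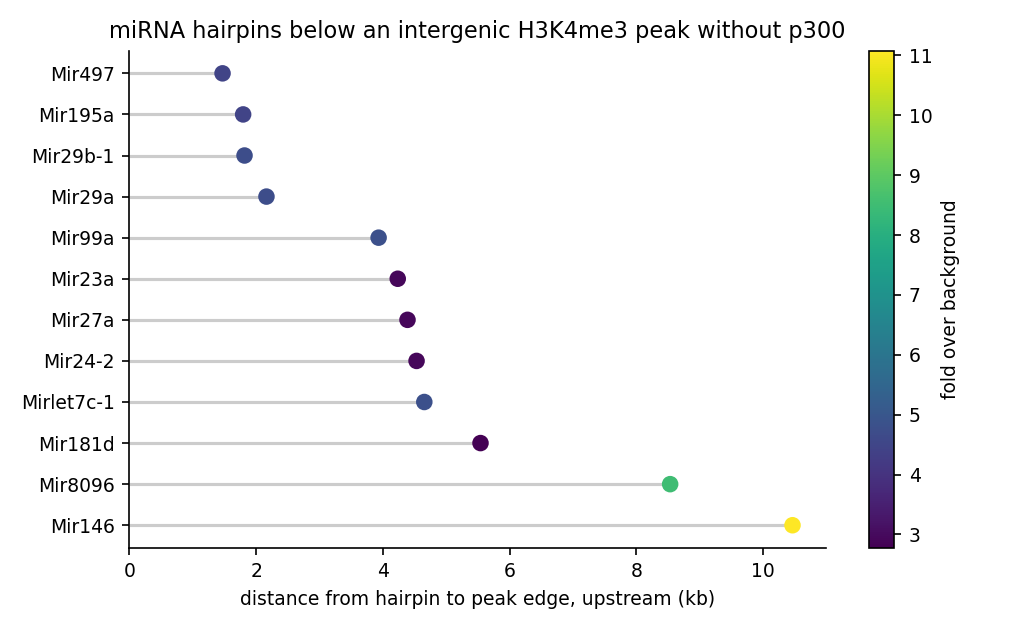
Distance from each of 12 intergenic microRNA hairpins to the first H3K4me3 peak upstream of it, in kb, for the hairpins whose first peak is intergenic and without p300. Points are hairpins, coloured by the fold of the peak over background; Mir497 is nearest at 1471 bp and Mir146 farthest at 10466 bp, with the highest fold of 11.1.

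The regions were narrower and held fewer reads than other H3K4me3 peaks, while their fold over background was similar. Their median width was 555 bp (quartiles 383 and 783), and the range was 246 to 2524 bp. Intergenic peaks with p300, of which there were 912, had a median width of 818.5 bp, peaks without p300 within 1 kb of a gene end (10604) 862 bp, and peaks without p300 deeper in gene bodies (7237) 578 bp. The summits of the regions held a median of 43 reads (quartiles 29 and 67). Intergenic peaks with p300 held 70 reads, gene-end peaks 100 and gene-body peaks 52.

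The fold ordered the classes differently from the reads. Its median was 6.26 in the regions (quartiles 5.07 and 7.77), 6.40 in intergenic peaks with p300, 6.51 at gene ends and 5.63 in gene bodies. The background under the summits had a median of 5.61 reads in the regions, 9.53 in intergenic peaks with p300, 14.6 at gene ends and 7.99 in gene bodies, so the lowest counts and the lowest background fell together. The small difference in fold from intergenic peaks with p300, -0.14, changed sign with the definition: it was 1.11 among peaks at or above the median −log10 q of the H3K4me3 list and 0.034 when regions with p300 within 1 kb were moved to the p300 side. The quartile ranges of all 4 classes overlapped for fold, width and reads.

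**Figure D2:**
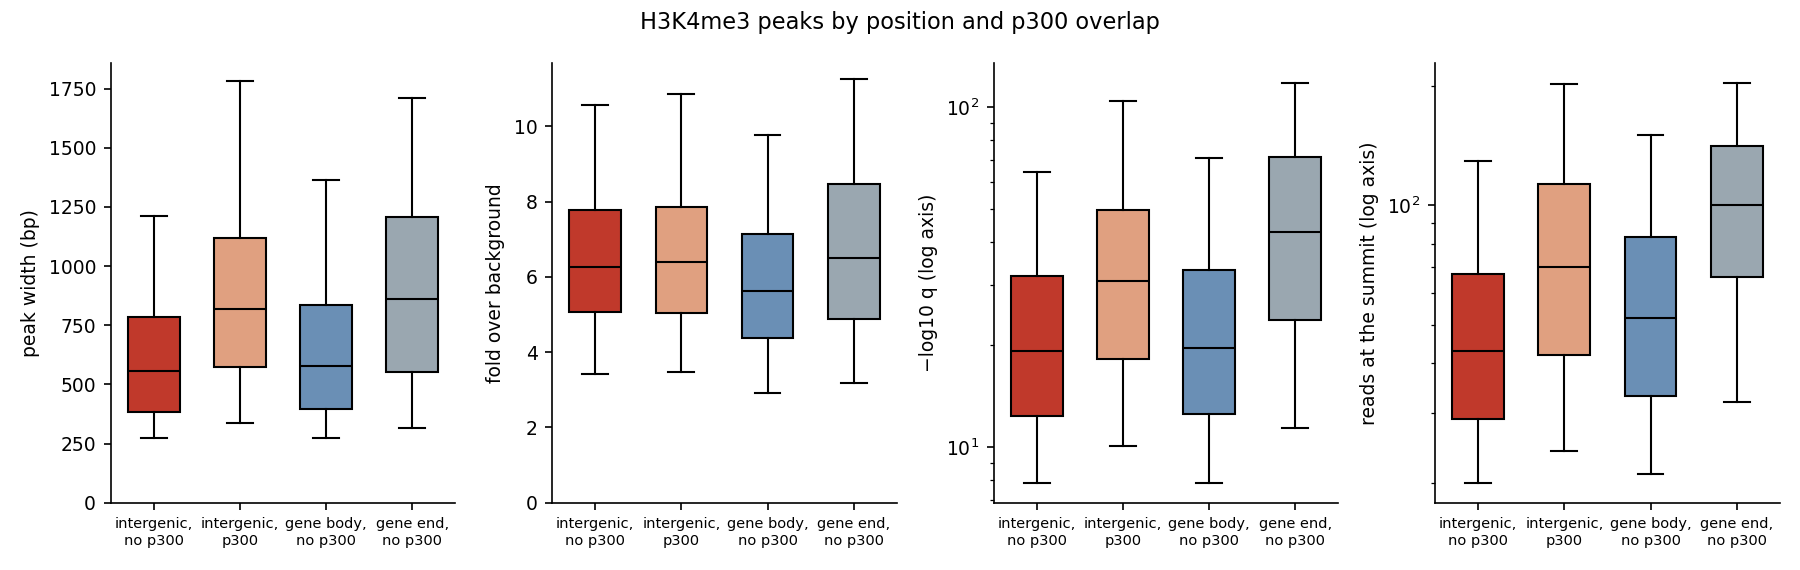
Width in bp, fold over background, −log10 q and reads at the summit (the last 2 on log axes) of H3K4me3 peaks in 4 classes. Boxes span the quartiles with the median as a line, and whiskers reach the lower and upper 5% of peaks; the intergenic peaks without p300 have the lowest median width (555 bp) and reads (43) but a fold (6.26) within the range of the others.

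A lack of p300 was about as frequent outside genes as inside. Of 4375 intergenic H3K4me3 peaks, 79.2% (77.9 to 80.3%) had no p300, and of 22644 peaks touching a gene or its 1 kb margin, 78.8% (78.3 to 79.3%) had none. The share depended on strength. In 5 classes of 875 intergenic peaks each, from the lowest to the highest −log10 q, it was 89.5%, 85.8%, 82.9%, 73.1% and 64.5%. A wider peak also meets a p300 peak more easily, and how much this bears on the share and on the widths above was not tested.

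Among the regions themselves, those farther from genes had higher folds and fewer reads. The median distance to the nearest gene of any type was 8926 bp (quartiles 4043 and 18529). The 325 regions at 1 to 2 kb from a gene had a median fold of 5.28 and 51 reads. The 802 regions at 5 to 10 kb had 6.24 and 43 reads, and the 225 regions over 50 kb away had 7.06 and 35 reads. The background fell over the same steps from a median of 8.61 to 5.83 and 3.93 reads. Width hardly moved, from 547 to 554.5 and 534 bp, and nor did the median −log10 q, at 18.3, 19.5 and 18.7. The lowest background in the list was 2.68 reads.

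**Figure D3:**
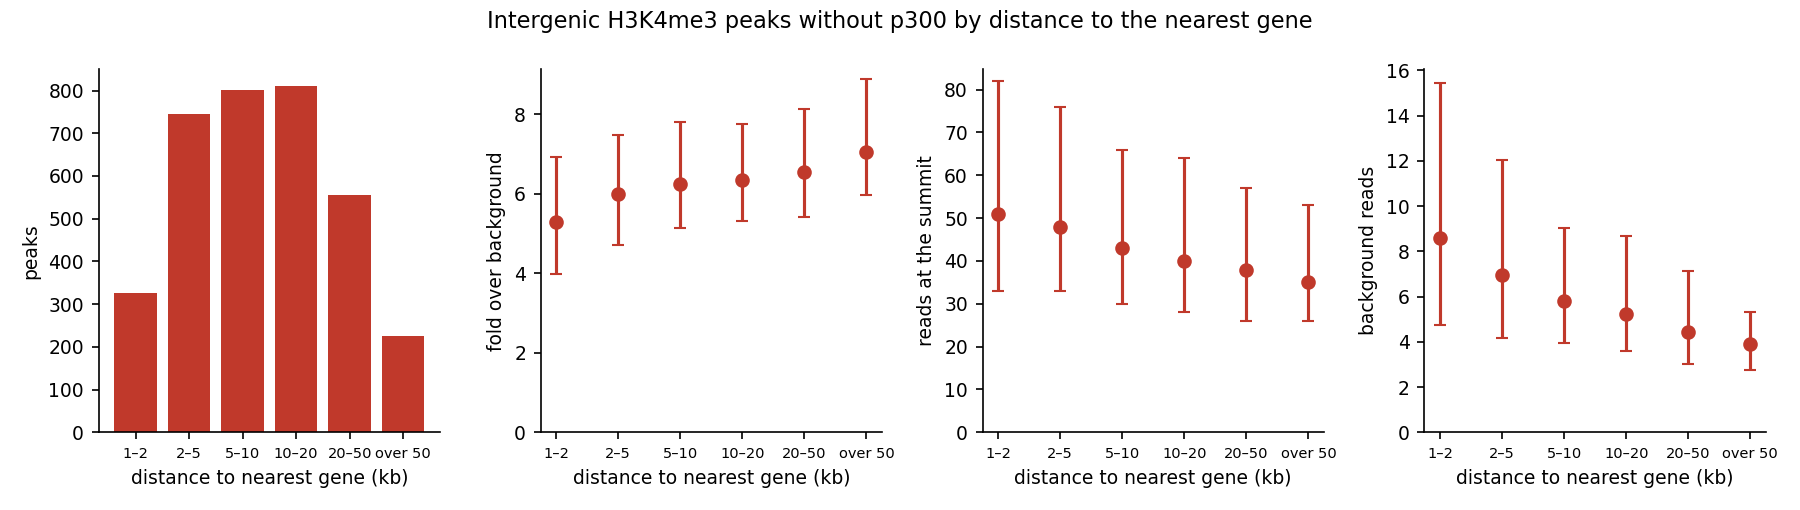
Number of intergenic H3K4me3 peaks without p300, and their fold over background, reads at the summit and background reads, by distance to the nearest gene of any type in kb. Points are medians and bars the quartiles; the fold climbs from 5.28 to 7.06 while the reads go from 51 to 35 and the background from 8.61 to 3.93.

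The nearest gene was protein-coding for 1609 of the regions, a share of 46.5% (44.8 to 48.1%), where 43.8% of genes in the table are protein-coding. It was a long non-coding RNA gene for 1225, which is 35.4% (33.8 to 37.0%) against 25.5% of the table. It was a pseudogene for 451, which is 13.0% against 19.9%. The table shares count genes and not the space around them, so no preference for a gene type can be read from these differences. Regions whose nearest gene was a pseudogene had a median fold of 7.05, and those nearest a protein-coding gene 5.99. A protein-coding gene lay within 10 kb of 1112 regions (32.1%) and more than 50 kb from 873 (25.2%).

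The regions were not concentrated upstream of the genes nearest to them. Strand was known for the nearest gene of 2228 regions, of which 1049 lay upstream and 1179 downstream, so that 47.1% (45.0 to 49.2%) were upstream. Within 1 to 2 kb the share was 44.0% (37.4 to 50.8%), with 99 regions upstream and 126 downstream. In that step the median fold was 4.64 upstream and 5.49 downstream, and the median −log10 q was 19.1 and 17.1. From 20 to 50 kb the upstream share was 50.4% (45.0 to 55.9%).

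The distance to p300 was somewhat longer than in other classes without it. The median distance to the nearest p300 peak was 74479 bp, 418 regions (12.1%, 11.0 to 13.2%) had one within 10 kb, and 1403 (40.5%) within 50 kb. Among peaks without p300 at gene ends the median distance was 63578.5 bp and 13.7% (13.0 to 14.4%) had p300 within 10 kb, and in gene bodies these were 59495 bp and 16.1% (15.3 to 17.0%). The nearest p300 peak, which neighbouring regions can share, overlapped another H3K4me3 peak for 363 of these 418 regions (86.8%), and 85.5% of all p300 peaks overlapped one. The median fold was 4.65 with p300 within 10 kb, 6.04 from 10 to 50 kb, 6.51 from 50 to 200 kb and 6.78 beyond. The median summit reads went the other way, from 60 to 47, 39 and 37, and the background from 12.0 to 6.69, 5.00 and 4.13. The median −log10 q hardly differed over these steps, at 18.8, 19.9, 18.6 and 18.8. Regions near p300 thus held more reads over a higher background. Their median distance to a gene, 5949.5 bp, was also shorter.

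The peaks at the edges of the rule had folds from 3.24 to 8.22. The members just inside the gene margin lay 1001 bp from Snx9, with a fold of 3.29, and 1002 bp from Ebf4, with 3.89. The peaks just outside it lay 999 bp from Gm7542, with 8.22, and 993 bp from 4930554P06Rik, with 4.67. The members closest to p300 lay 46 and 99 bases from it with folds of 3.24 and 6.28. The smallest overlaps that left a peak out were 11 bases near Ier2, an immediate early gene, with a fold of 3.68, and 34 bases near Gm33924, with 5.08.

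The strongest regions included very narrow ones that stood apart from the rest. Of 27019 H3K4me3 peaks 84 (0.311%) had a fold over 15, and 17 of these were among the regions (0.491%). A fold over 15 was more frequent in intergenic peaks with p300, at 1.86%. Of the 17, 12 were narrower than 450 bp, out of 31 such narrow peaks in the whole list. These 12 were 0.347% of the regions, and the share was 0.329% (3 of 912) among intergenic peaks with p300, so such peaks were not particular to the regions. The highest −log10 q of all regions, 840, was at chr1:195241516-195241927, 412 bp wide with a fold of 30.6 and 778 reads. The next were at chr16:98107497-98107765, with a fold of 29.8 and 286 reads, at chr19:61331279-61331562, with 31.8 and 263 reads, and at chrX:170758240-170758506, with 31.7 and 240 reads.

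Of these 12 narrow peaks 5 lay beyond the last annotated gene of their chromosome, at the ends of chromosomes 1, 16 and 19 and, for 2 peaks, of X. Only 12 H3K4me3 peaks of the whole list lay beyond a last gene. A further narrow peak, on chromosome 12 at chr12:93576984-93577239, had a fold of 28.6 and lay 132160 bp from any gene. The sources used here do not give how reads from repeated DNA were treated, and whether repeats bear on these peaks was not tested. Leaving the 12 out left 3451 regions and kept each recomputed share and median difference within the interval of the full set. So few peaks could hardly move a share or a median, so this says little about them.

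**Figure D4:**
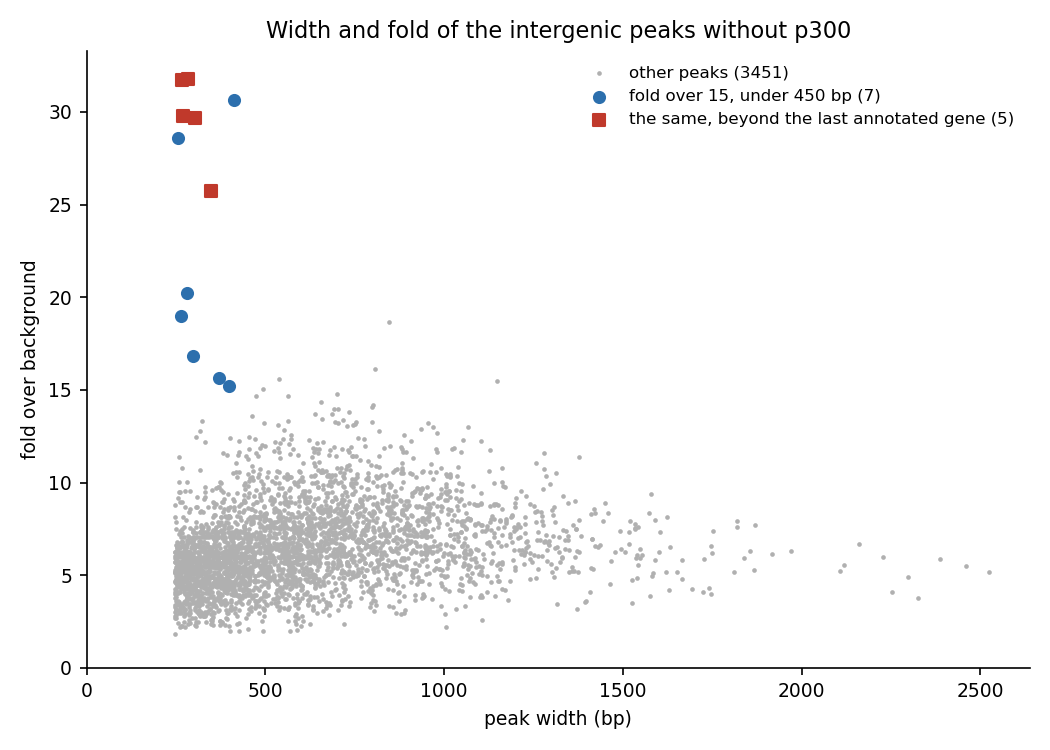
Width in bp against fold over background for the 3463 intergenic H3K4me3 peaks without p300. Blue circles and red squares are the 12 peaks with a fold over 15 that are narrower than 450 bp; the 5 squares lie beyond the last annotated gene of their chromosome and all have folds over 25.

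The other strong regions named by the rule were wider than the upper quartile of all regions, 783 bp. The peak at chr6:100563074-100564201 was 1128 bp wide with a fold of 11.7 and 305 reads, 7609 bp from Shq1, which encodes an assembly factor of box H/ACA ribonucleoproteins. On chromosome 3 a peak of 807 bp with a fold of 16.2 and 219 reads lay 12258 bp from Ccnl1, a cyclin that acts in splicing. On chromosome 2 a peak of 1066 bp with a fold of 13.0 and 235 reads lay 5234 bp from Trp53rkb, a p53-regulating kinase gene. On chromosome 19 a peak of 847 bp with a fold of 18.7 and 283 reads lay 16946 bp from Csf2ra. No p300 peak lay within 15 kb of any of these 4.

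The 10 widest regions, picked by width, measured from 2106 to 2524 bp. Peaks without p300 at gene ends had an upper quartile of 1209 bp and reached 10051 bp. The widest, chr11:119056352-119058875, measured 2524 bp with a fold of 5.19 and 218 reads, and lay 15438 bp from Cbx8, which encodes a Polycomb chromodomain protein. The next were 2459 bp near Ahdc1, 2387 bp near Klf15, a Krüppel-like transcription factor, and 2326 bp near Bcl9l, a Wnt coactivator. The fifth, 2296 bp wide with a fold of 4.88, lay 8395 bp from Fos, the immediate early transcription factor. The others of the 10 widest lay nearest Ssbp4, Krt80, Jam3, Nhlh1 and Otogl, at 2252, 2227, 2161, 2117 and 2106 bp. Their folds ran from 3.76 to 6.70, and the Otogl one had just 43 summit reads against 134 or more in the others.

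The most isolated regions were in gene deserts. The region farthest from any gene, chr15:15089752-15090708, lay 623082 bp from a pseudogene and had a fold of 7.93 and 31 reads, with the cadherin gene Cdh9 as its nearest protein-coding gene. The next 4 lay 313351, 294593, 285194 and 277936 bp from a gene on chromosomes 5, 10, 13 and 6. Of these the one on chromosome 10, near Tbc1d32, stood out with a fold of 15.1 and 80 reads. The other 3 had folds of 7.33, 5.97 and 6.51 and between 21 and 26 reads over the lowest background of the list.

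The regions mostly stood alone. Another H3K4me3 peak lay within 5 kb of 807 of them, or 23.3% (21.9 to 24.7%). The share was 29.4% (26.4 to 32.5%) for intergenic peaks with p300, 36.1% (34.9 to 37.2%) in gene bodies and 45.0% (44.1 to 46.0%) at gene ends. The nearest such peak was another of the regions for 471, a peak at or in a gene for 228 and an intergenic peak with p300 for 108. Joined at 5 kb, 2971 regions were single, 218 runs held 2, 11 held 3, 4 held 4 and 1 held 7.

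One intergenic interval held more regions than any other. Between Hrh1, the histamine H1 receptor gene, and Atg7, which encodes an E1-like enzyme of autophagy, chr6:114483299-114643126 spans 159828 bp without an annotated gene. It contained 15 of the regions, no other H3K4me3 peak and no p300 peak. The run of 7 lay there, from 114604518 to 114625071, and so did a run of 4 and a run of 3. Folds in the interval ran from 2.27 to 7.83 over a median background of 30.4 reads (18.3 to 35.1), well above the median of 5.61 over all regions. The next interval held 7 regions in 55569 bp, beside Socs3, a feedback inhibitor of cytokine signalling. Per 100 kb that was 12.6 regions, against 9.39 between Hrh1 and Atg7, which was thus not the densest interval. The other runs of 4 lay nearest Clstn3, Bahcc1 and Sec14l1.

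The share of H3K4me3 peaks that were intergenic without p300 varied among chromosomes. Among the autosomes it was highest on chromosomes 13 (16.9%, 14.7 to 19.3%), 18 (16.8%) and 12 (16.4%) and lowest on chromosome 19 (9.51%, 7.60 to 11.7%) and chromosome 7 (10.1%). On X 60 of 555 peaks were among the regions (10.8%, 8.35 to 13.7%), with a median fold of 7.54, the highest of any chromosome. On Y they were 4 of 8.

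Some genes with no H3K4me3 of their own had one of the regions upstream. Of 17491 protein-coding genes with a known strand, 7096 had no H3K4me3 peak in the gene or within 1 kb. Of these 137 (1.93%, 1.62 to 2.28%) had a region within 10 kb upstream and 115 (1.62%, 1.34 to 1.94%) within 10 kb downstream, so the 2 sides differed little, with overlapping intervals. Of the 137 and 115, 4 genes were in both. By the −log10 q of the region the first were Mog, Gsc2, Evx1, Cyp2d10 and Tnfrsf9, genes named after their values were seen.

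The upstream region of Mog, the gene of myelin oligodendrocyte glycoprotein, was 800 bp wide at chr17:37028416-37029215 and 5017 bp from the gene, with a fold of 14.2 and 162 reads. Gsc2, a goosecoid-related homeobox gene, had a region of 1535 bp at 6220 bp, with a fold of 7.77 and 237 reads, though its nearest gene was Slc25a1. Evx1, an even-skipped-type homeobox gene beside the Hoxa cluster, had one of 904 bp at 6970 bp, with a fold of 10.5 and 144 reads, and the antisense gene Evx1os was nearer. Tnfrsf9, which encodes the T cell costimulatory receptor 4-1BB, had one of 1174 bp at 4795 bp, with a fold of 7.94 and 156 reads, and Park7 was nearer. Which transcript, if any, starts at these regions cannot be read from peak lists.

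The annotated promoters of these genes differed in CpG content. In windows from 250 bases before to 50 after the annotated start, the dinucleotide CG, which reads the same on both strands, occurred a median of 6 times in the 137 genes, 3 times in all 7096 unmarked genes and 21 times in the 10395 genes with H3K4me3. Windows with 10 or more made up 35.0%, 20.5% and 82.2%, and 57.2% of all 17491. The windows of Gsc2, with 24, and Evx1, with 12, are set beside those of Mog, with 3, and Tnfrsf9, with 4, to show unmarked promoters with more and with fewer CpG. The 12 of Evx1 lie above the upper quartile of the unmarked genes, 8, but below the median of 13 over all 17491. CG is in capitals. The sequences are RefSeq's for GRCm38.p6, read along each gene's strand, at chr16:17914978-17915277 (minus), chr6:52313248-52313547 (plus), chr17:37023349-37023648 (minus) and chr4:150919905-150920204 (plus).
Gsc2: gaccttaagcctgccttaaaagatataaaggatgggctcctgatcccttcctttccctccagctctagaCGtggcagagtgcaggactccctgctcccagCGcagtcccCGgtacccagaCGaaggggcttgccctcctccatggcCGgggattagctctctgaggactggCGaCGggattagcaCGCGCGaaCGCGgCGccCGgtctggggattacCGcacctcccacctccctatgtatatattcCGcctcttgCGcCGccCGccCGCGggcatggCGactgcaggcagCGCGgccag
Evx1: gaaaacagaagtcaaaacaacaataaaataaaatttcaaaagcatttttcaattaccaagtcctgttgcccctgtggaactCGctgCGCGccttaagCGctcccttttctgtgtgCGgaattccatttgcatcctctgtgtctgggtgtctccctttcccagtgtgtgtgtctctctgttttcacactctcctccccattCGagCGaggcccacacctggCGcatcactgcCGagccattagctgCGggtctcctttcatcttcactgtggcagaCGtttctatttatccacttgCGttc
Mog: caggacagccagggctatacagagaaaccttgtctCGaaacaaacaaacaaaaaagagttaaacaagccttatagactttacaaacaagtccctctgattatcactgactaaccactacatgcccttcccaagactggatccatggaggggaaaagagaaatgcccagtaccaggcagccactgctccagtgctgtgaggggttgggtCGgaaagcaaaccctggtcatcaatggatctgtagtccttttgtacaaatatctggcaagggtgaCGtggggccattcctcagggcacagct
Tnfrsf9: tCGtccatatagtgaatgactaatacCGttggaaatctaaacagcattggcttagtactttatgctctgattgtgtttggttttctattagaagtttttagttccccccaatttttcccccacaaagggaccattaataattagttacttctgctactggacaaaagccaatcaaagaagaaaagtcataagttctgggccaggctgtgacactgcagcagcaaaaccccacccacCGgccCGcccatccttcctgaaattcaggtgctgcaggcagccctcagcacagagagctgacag
None of these 4 windows lay in or within 1 kb of an H3K4me3 peak.

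Gene lists were set beside all protein-coding genes, of which 4406 of 21883 (20.1%) had one of the regions within 50 kb of their span. The median distance from a gene to its nearest region was 223784 bp over all genes. A region counted for a listed gene can lie nearest another protein-coding gene. Those of Gpnmb, Hps4, Setd1b and Tyrobp, for example, lay nearest Svs1, Sez6l, Hpd and Lrfn3. Among the 12889 genes with H3K4me3 in the gene or within 1 kb, 26.2% had a region within 50 kb. Most genes of the lists are of that kind, so both shares are given as the background at 50 kb. At 20 and 100 kb only the lower background, the share over all genes, is at hand for 50 kb's counterpart, so contrasts there are less matched. Neighbouring genes can share a region, and Fosl1 with its region counts in both the immediate early and the invasive list. The intervals treat each gene as a separate draw, so they are no test of a list. Over the next 4 lists the intervals at 50 kb lie above 20.1%, and those of the MAPK, invasive and pigment lists include 26.2%. The order of the lists depended on the window. Within 20 kb 4 of 25 pigment genes and 5 of 23 invasive genes (21.7%) had a region, against 10.5% of all genes. Within 100 kb these were 12 and 11 genes (the latter 47.8%) against 32.0% of all genes, with shares below the 60.0% of lymphocyte and 63.6% of muscle markers.

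Immediate early genes, the first transcription factors induced by growth signals, had the highest share. Of 18, 10 had a region within 50 kb, which is 55.6% (30.8 to 78.5%), and 9 had one within 20 kb, where the share over all genes was 10.5%. Their median distance was 17807.5 bp. Among the 17 with H3K4me3, 9 had a region (52.9%). The region of highest fold near Klf4 was chr4:55480189-55481203, with 9.23. Fosl1 and Egr3 had regions of fold 7.63 at 13748 and 1074 bp. The region of Egr3 was 1818 bp wide. The regions within 50 kb numbered 5 near Fos and 4 near Fosb.

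Genes of MAPK signalling and its feedback also had many. Of 19, all with H3K4me3, 9 had a region within 50 kb (47.4%, 24.4 to 71.1%), at a median distance over the list of 55289 bp. The feedback inhibitors Spred1, Spry2 and Spry4 had the highest folds, at 8.53, 8.45 and 7.58, at 28223, 23668 and 43547 bp. Of the 23 genes of the invasive melanoma state, 10 had a region (43.5%, 23.2 to 65.5%). Tead1, a transcription factor of the Hippo pathway, had one of fold 11.0 at 22669 bp, Ngfr, the nerve growth factor receptor of neural crest cells, one of 9.99 at 22361 bp, and Ccn1, a matrix protein gene, one of 8.99 at 31442 bp. Each of Tead1, Ngfr and Itga5 had 4 regions within 50 kb.

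Of 25 pigment cell genes 10 had a region within 50 kb (40.0%, 21.1 to 61.3%), and the median distance was 109762 bp. Tyrp1, an enzyme of melanin synthesis, had the strongest, chr4:80864551-80865092, with a fold of 12.1 and 80 reads at 12814 bp. Gpnmb, a melanosome glycoprotein gene, had one of 8.85 at 27551 bp, and Hps4, of lysosome-related organelle formation, one of 7.21 at 33175 bp. Regions near Tyr, Dct and Mitf had folds of 6.24, 6.02 and 5.18, close to or below the median of all regions. The region of Mc1r, with a low fold but 355 reads at its summit, also counts for Tubb3 of the neural list.

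The p53 target, excision repair and H3K9 methylation lists had shares below 20.1% within 50 kb, but with intervals that include it. Of 30 p53 target genes 4 had a region within 50 kb (13.3%, 3.76 to 30.7%), namely Tigar at 7.85, Tnfrsf10b at 4.48, Phlda3 at 4.24 and Gdf15 at 4.11, the last with the Ssbp4 peak of 2252 bp. Of 23 excision repair and demethylation genes 3 had one, Dnmt3a at 7.53, Smug1 at 5.16 and Xrcc1 at 3.59. Of 19 genes of H3K9 methylation and its readers 3 had one, Ehmt2, a H3K9 methyltransferase gene, at 9.92, Cbx3 at 6.83 and Cbx5 at 5.16, the last with the region that counts for Smug1. The regions named for the p53 target and H3K9 lists all lay nearest another protein-coding gene. That of Tigar was 49771 bp away and nearest Fgf6, and that of Ehmt2 was 27392 bp away and nearest Neu1. Counting only regions at or above the median −log10 q of the H3K4me3 list, the shares of the p53, excision repair and H3K9 lists were 6.67%, 8.70% and 15.8%. Over all genes that share was 6.74%. The fixed genes Tdg, Trp53, Ep300, Cdkn1a and Mdm2 had no region within 50 kb. The nearest lay 703091 bp from Tdg, 310579 bp from Trp53, 296266 bp from Cdkn1a and 117175 bp from Mdm2, and the one nearest Ep300, with a fold of 8.43, lay 62478 bp away.

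The other lists had shares whose intervals included 20.1%. Of 29 ribosomal protein genes 10 had a region (34.5%), with Rps3 the highest at 7.40, of 19 genes of H3K4 methylation 6, with Setd1b at 9.10, of 22 interferon and nucleic acid sensing genes 7, with Adar at 8.77 and Sting1 at 8.43, and of 27 cell cycle genes 6, with Mki67 at 12.6. Of 39 Hox genes 9 had one, but a single region, chr2:74672678-74673191 with a fold of 7.05, counted for 8 of them from Hoxd3 to Hoxd13. The other Hox gene was Hoxa13, which shared the region of Evx1. Of 40 developmental transcription factor genes 10 had one, among them Tfap2a at 8.68 and Dlx5 at 7.71.

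Markers of other cell types had regions too. Of 13 myeloid genes 4 had one within 50 kb, Tyrobp at 10.5, Fcgr1 at 9.74, Cx3cr1 at 7.62 and Cd14 at 6.66, and none of the 4 is among the 2 myeloid genes with H3K4me3. Of 12 epithelial genes 4 had one, with Krt8 and Krt18 sharing a region of 6.82 and Cdh1 and Grhl2 at 6.66 and 6.60. Of 15 lymphocyte genes 3 had one, with Lck at 9.66. Of 14 stromal genes 4 had one, with Col1a1 at 7.50, and all 4 had H3K4me3 of their own. Muscle, neural and germline lists had 2 each, of 11, 13 and 16 genes, and the hepatocyte list had 0 of 11, which allows a share of up to 28.5%.

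**Figure D5:**
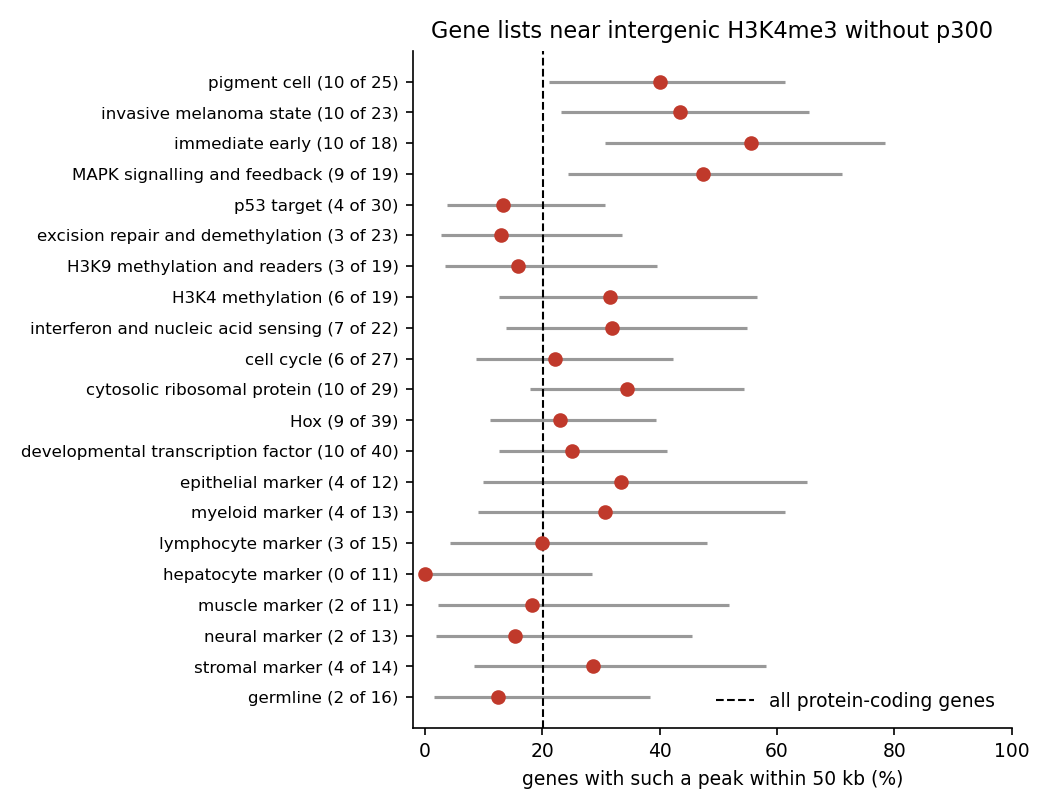
Share of genes in each of 21 lists with an intergenic H3K4me3 peak without p300 within 50 kb, in percent, with exact 95% binomial intervals as bars. The dashed line is the 20.1% of all protein-coding genes; the immediate early list is highest at 55.6% and the hepatocyte list lowest at 0.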

How the data were processed

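Used were 2 deposited narrowPeak lists of wild-type B16 cells, H3K4me3 and p300, assigned by sample title. The submitters' processing notes name mm10, deepTools, Trim Galore, Picard 2.22.4 and Bowtie2 2.2.5. The peak caller, any control and the handling of repeats were not given in the sources used here. Each deposited row holds a score, a fold (the ratio of the summit to a background), a −log10 p and a −log10 q. These are the authors' values, used within 1 list at a time for description and ranking.

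Of 27043 H3K4me3 rows, 27019 lay on chromosomes 1 to 19, X and Y. Gene spans came from RefSeq GRCm38.p6, which shares the mm10 chromosomes, and strand from its promoter table. An overlap needed 1 shared base, and distances run between edges. Summit reads were solved from the fold, read as (reads + 1) over (background + 1), and a Poisson tail. With a tolerance of 0.002, the deposited −log10 p fitted a whole read number in 99.98% of the list and 100% of the regions, of which the lowest had 15. Read totals are unknown. Shares carry exact 95% binomial intervals. The interval used for a median difference covers the error of the regions' median and not that of the class compared. The scripts (Python 3.11.15, pandas 2.3.3, scipy 1.17.1) were tested on simulated data.

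The regions, 21 gene lists (435 symbols, 431 matched) and tests were chosen with earlier results of these data known. Named were the 10 regions of highest −log10 q, the 10 widest, the 5 farthest from genes, the 3 longest runs, 2 on each side of the gene margin, up to 3 genes per list by the fold of a region within 50 kb, and Tdg, Trp53, Ep300, Cdkn1a and Mdm2. A gene that the rule names is not reported here. MicroRNAs, genes without H3K4me3, peaks of fold over 15, further intervals and further list genes were named after their values were seen. Alternatives changed the gene margin, the genes used, the p300 rule, the peak threshold, joining of peaks and each window.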

Additional observations from a re-analysis of the deposited data

How the results depend on the processing

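Of 74 recomputed values, 35 stayed within the interval or within 1.5 times the count, 37 moved further than that, up or down, without a change of sign, and 2 changed sign, both for the small difference in median fold from intergenic peaks with p300 (-0.14). With H3K4me3 peaks at or above the median −log10 q of 31.9 that difference was 1.11, the regions numbered 861, the share of intergenic peaks without p300 was 66.5%, the width difference -182 bp, the fold difference from gene bodies 1.01, and the shares with H3K4me3 within 5 kb, with a protein-coding gene within 10 kb and of genes within 50 kb were 9.06%, 35.4% and 6.74%. With no p300 within 1 kb the fold difference was 0.034, the share without p300 77.6%, the width difference -225.5 bp and the share with p300 within 10 kb 10.4%. With a gene margin of 5 kb the width and fold differences were -280 bp and -0.19, and the shares were 10.3% (p300), 18.6% (H3K4me3), 18.4% (protein-coding) and 11.7% (genes). With protein-coding genes alone they were -284.5 bp, -0.20, 13.4%, 25.5% and 26.6%. With peaks less than 1 kb apart joined, the differences were -288 bp and, from gene bodies, 0.46, and the shares 10.3% (p300), 14.4% (H3K4me3) and 19.6% (genes). With p300 peaks at or above their median −log10 q of 15.6, 88.0% lacked p300 and 6.83% had it within 10 kb. On autosomes 20.99% of genes had a region within 50 kb. Windows of 5 and 20 kb gave 5.60% and 21.7% for p300 and 17.0% and 51.9% for protein-coding genes, windows of 2 and 10 kb gave 13.9% and 42.7% for H3K4me3, and windows of 20 and 100 kb gave 10.5% and 32.0% of genes. Other than through the choice of peaks and windows itself, the cause was not tested. Leaving out the 12 narrow peaks of fold over 15, chosen after seeing the data, moved none, which so few peaks could hardly do.

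No paired analysis was possible because H3K4me3 and p300 had 1 library each. p300 below detection at this depth counts as none, and the reads at a summit, from 15 upward, limit the precision of every fold.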
